A study of Mus musculus with 6 samples.

Results

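Immediate-early and growth response genes were described in cultured EMT6 cells as a set of 10 genes out of 53465 gene identifiers in the count table, namely Fos, Fosl1, Jun, Junb, Egr1, Ier2, Dusp1, Myc, Gadd45b and Klf6. They were chosen by name, and selected with their levels in these same libraries and their contrast between the groups already known, so the values below describe them and are no independent test of them. The question was whether their transcript levels varied more between libraries of one group than between treatments. All 10 were found in the table under a single identifier each, and all 10 passed the filter on low counts, as did 14217 identifiers in all.

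EMT6 is an established mouse mammary carcinoma cell line. In 3 libraries, PVITRO, the cells had been kept with an isotype control antibody, and in 3 libraries, PTRVITRO, with the anti-PD-L1 antibody clone 80, each at 0.5 μg/ml for more than 4 weeks, in RPMI with fetal bovine serum and without immune cells or a host. PD-L1, encoded by Cd274, is an immune checkpoint ligand that the cells themselves make, and it was present in both groups, at 17.2 ± 1.18 CPM (counts scaled to library size; mean ± SD, n = 3) in PVITRO and 18.0 ± 0.600 CPM in PTRVITRO. Nothing in the labels says that the replicates were separate cultures, and the study calls the replicates it shows technical where nothing else is specified, so the p-values cover only the spread between these libraries.

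Total counts ran from 17757341 in PTRVITRO replicate 3 to 32426739 in PTRVITRO replicate 1. Krt8 and Krt18, keratins of simple epithelia, lay between 478 and 1120 CPM and Vim, a mesenchymal filament gene, between 1850 and 1970 CPM, whereas the epithelial genes Epcam (1.23 to 2.42 CPM) was low and Cdh1 (2 counts over all libraries) was at background. The pan-leukocyte gene Ptprc, the macrophage gene Adgre1 and the fibroblast gene Lum had no count in any library. The fibroblast genes Dcn (23.9 to 46.8 CPM) and Pdgfra (7.62 to 9.88 CPM) were present in every library, and the myeloid gene Lyz2 was detected in each at 0.338 to 0.641 CPM (75 counts in all). Because bulk RNA was measured, fewer cells expressing a gene and less of its RNA per cell cannot be told apart.

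Immediate-early genes are transcribed within minutes of growth factor, serum or stress signals and need no new protein synthesis for it. Signals through the ERK, JNK and p38 kinases reach their promoters through SRF with its ternary complex partners and through CREB and ATF proteins. Many of the products are transcription factors, of which the FOS and JUN proteins pair to form AP-1, and others, such as the phosphatase DUSP1, switch the kinases off again. Their mRNAs are mostly short lived, so that their levels follow recent signalling.

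By their medians, the members' transcripts were shorter and richer in G and C than those of other genes. Their median exonic GC content was 56.2%, against 49.8% over the 11714 tested protein-coding genes, and their median summed exon length was 2534.5 bases against 4457. Klf6 (42.4% GC) lay below that GC background, and Egr1 (4484 bases) above that length. Jun and Ier2 have a single exon, which made 20% of the members against 1.90% of tested protein-coding genes. The pentamer AUUUA, a core of the AU-rich elements through which many short-lived mRNAs are degraded, was found between 0 times (Ier2, Gadd45b) and 7 times (Klf6) in the longest annotated 3′ untranslated region, at a median of 2.74 per kb against 1.295 per kb in all tested protein-coding genes.

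Promoters were printed for 4 members because their library profiles, given further on, fell into different orders. Fos, Junb and Dusp1 shared one order and Gadd45b had the other. Windows of 300 bases around each gene's start were taken from the RefSeq promoter table (GRCm38.p6) for 6 of the 10 members. The windows are chr12:85473640-85473939, plus strand, for Fos, chr8:84978699-84978998, minus strand, for Junb, chr17:26508423-26508722, minus strand, for Dusp1 and chr10:80929841-80930140, plus strand, for Gadd45b. They are written 5′ to 3′ on the gene's strand, and capitals mark TGACG, the 5-base core of a cyclic AMP response element, and its full palindrome TGACGTCA.
Fos: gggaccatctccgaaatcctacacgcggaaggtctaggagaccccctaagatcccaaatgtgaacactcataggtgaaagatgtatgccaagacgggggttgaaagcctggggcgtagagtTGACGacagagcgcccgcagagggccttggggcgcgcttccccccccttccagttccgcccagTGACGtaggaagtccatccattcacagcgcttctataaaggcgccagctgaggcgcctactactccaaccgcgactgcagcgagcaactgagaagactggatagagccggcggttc
Junb: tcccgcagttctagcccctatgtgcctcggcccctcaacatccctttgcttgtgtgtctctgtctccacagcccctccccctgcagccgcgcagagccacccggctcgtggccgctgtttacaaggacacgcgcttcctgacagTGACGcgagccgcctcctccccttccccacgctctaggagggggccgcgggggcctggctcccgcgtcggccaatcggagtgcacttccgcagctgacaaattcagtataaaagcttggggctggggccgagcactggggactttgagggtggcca
Dusp1: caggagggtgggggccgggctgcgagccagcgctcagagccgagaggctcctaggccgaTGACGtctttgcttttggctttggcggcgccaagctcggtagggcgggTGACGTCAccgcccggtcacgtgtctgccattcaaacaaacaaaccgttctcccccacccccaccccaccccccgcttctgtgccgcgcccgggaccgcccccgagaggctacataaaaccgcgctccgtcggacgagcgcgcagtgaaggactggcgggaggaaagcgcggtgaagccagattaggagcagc
Gadd45b: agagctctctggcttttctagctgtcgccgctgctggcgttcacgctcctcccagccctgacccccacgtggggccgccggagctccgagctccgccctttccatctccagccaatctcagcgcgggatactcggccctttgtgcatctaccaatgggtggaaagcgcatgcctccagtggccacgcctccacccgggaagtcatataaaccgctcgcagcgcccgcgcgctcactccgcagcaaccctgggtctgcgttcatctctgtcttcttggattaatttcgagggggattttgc

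TGACG on either strand was present in 3 of the 6 member promoters (Fos, Junb and Dusp1) and in 20.8% of all 32851 promoters of the same length. In Fos it began at positions -129 and -66, counted with the RefSeq start as 0. In Dusp1 the full palindrome TGACGTCA, which contains TGACG on both strands and was found in 1.79% of all promoters, began at position -143. The Gadd45b window held no TGACG, and so has no capitals. The windows of Jun and Klf6, whose library orders differed from both, held no TGACG either. A link between TGACG and library order was not tested.

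TATAAA was found in 3 of the 6 windows (Fos, Junb and Gadd45b) against 13.6% of all promoters, at -33 in Fos, at -46 in Gadd45b and at 0, on the RefSeq start itself, in Junb. The E-box CACGTG, the sequence that MYC with MAX can bind, was found in 3 (Dusp1, Gadd45b and Klf6) against 7.15%. The CArG box of SRF, the AP-1 site TGACTCA, the ETS site CCGGAAGT and the EGR site GCGTGGGCG were in none of the 6 windows, against 1.63%, 5.20%, 3.89% and 0.612% of all promoters. Promoters of Fosl1, Egr1, Ier2 and Myc were not among the 6 windows and were not searched, so these counts do not cover them. A match is a run of letters and no shown binding site, and a missing match says only that these letters are not in this window.

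Between the groups, none of the 10 members passed the edgeR quasi-likelihood test at an adjusted p below 0.05, while 0.246% of all tested genes did (35 genes). Ier2 and Junb, 2 of the 10, had an unadjusted p under 0.05, as had 1620 of the 14217 tested genes, which is the background for such counts further on. DESeq2 called 1 member (Ier2), beside 111 of all tested genes, and limma-voom none, beside 31. Of the 10, 4 had a log2 fold change (PTRVITRO over PVITRO) above 0 and 6 below, with a median of -0.04 against -0.00 over all tested genes. The values of each member follow by role.

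Among the subunits of AP-1, Fos is the classical partner of the JUN proteins and one of the most transient of the immediate-early genes. Fos (ENSMUSG00000021250.13) lies at chr12:85473890-85477273 of GRCm38 on the plus strand, with up to 4 exons in a transcript. It was at 186, 144.2 and 167 CPM in PVITRO replicates 1, 2 and 3 and at 166, 143.6 and 133 CPM in PTRVITRO replicates 1, 2 and 3. The groups overlapped, with means of 166 ± 20.99 CPM and 148 ± 16.8 CPM (SD, n = 3), and replicate 1 was the highest library of each group. The log2 fold change was -0.16 (SE 0.09; adjusted p = 0.548, edgeR). It was -0.07 without PVITRO replicate 1 and -0.26 without PTRVITRO replicate 1, and with no filter on low counts its adjusted p was 0.0408.

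Fosl1 encodes FRA-1, a FOS protein without a transactivation domain of the FOS kind that is abundant in many invasive carcinoma lines. It was at 502, 601 and 472 CPM in PVITRO and at 537, 565 and 579 CPM in PTRVITRO, so that all PTRVITRO libraries lay inside the range of the PVITRO libraries. The log2 fold change was 0.09 (SE 0.07; edgeR adjusted p = 0.675), 0.20 without PVITRO replicate 2, where Fosl1 was highest, and 0.02 without PVITRO replicate 3, where it was lowest. Exonic sequence of Fosl1 overlaps Ccdc85b on the opposite strand over 1056 bases (22.3 CPM).

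Jun, which forms dimers with FOS proteins or with itself, had the smallest within-group spread of the members with all libraries, though not without PVITRO replicate 2, without PTRVITRO replicate 1 or after the correction for GC content and exon length. Its levels were 318.3, 312 and 302 CPM in PVITRO and 327, 318.3 and 332 CPM in PTRVITRO. Only PVITRO replicate 1 and PTRVITRO replicate 2 met, at nearly the same value, and the log2 fold change was 0.07 (SE 0.03; edgeR adjusted p = 0.502).

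Junb, a JUN protein that also restrains the activity of JUN, was at 419.7, 392 and 399 CPM in PVITRO and at 395, 366 and 362 CPM in PTRVITRO. PTRVITRO replicate 1 lay within the PVITRO range and the other two lay under it. The log2 fold change was -0.11 (SE 0.04), with an unadjusted p of 0.0268 and an adjusted p of 0.355 in edgeR. Junb shares exonic sequence with Prdx2 (115 CPM) on the opposite strand, and Jun with Junos (0.528 CPM). The kit was stranded, but whether the counting used the strand is not given in the sources used here.

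Levels were also divided by the summed length of all annotated exons of a gene. This makes genes only roughly comparable, because the transcripts expressed may be shorter than that sum. Per kb of exon, Fosl1 was the highest AP-1 gene at 267 CPM per kb (mean over 6 libraries), followed by Junb at 169, Jun at 99.8 and Fos at 66.7. With the SD over the 6 libraries (24.1, 9.41, 3.35 and 8.37 CPM per kb, in the same order), these 4 did not meet. Of the other members, Myc (184 ± 6.88) and Egr1 (184 ± 16.9) came after Fosl1, Ier2 (142 ± 21.3) after Junb, Klf6 (107 ± 3.79) before Jun, and Gadd45b (50.2 ± 9.02) and Dusp1 (22.8 ± 1.75) last. Within their SD, Myc, Egr1 and Junb were not apart, nor Junb and Ier2, nor Fos and Gadd45b. Among other AP-1 genes, named after their values were seen, Atf3 stood at 118 and Jund at 81.5, whereas Fosl2 (23.4) and Fosb (3.36) lay lowest.

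**Figure D1:**
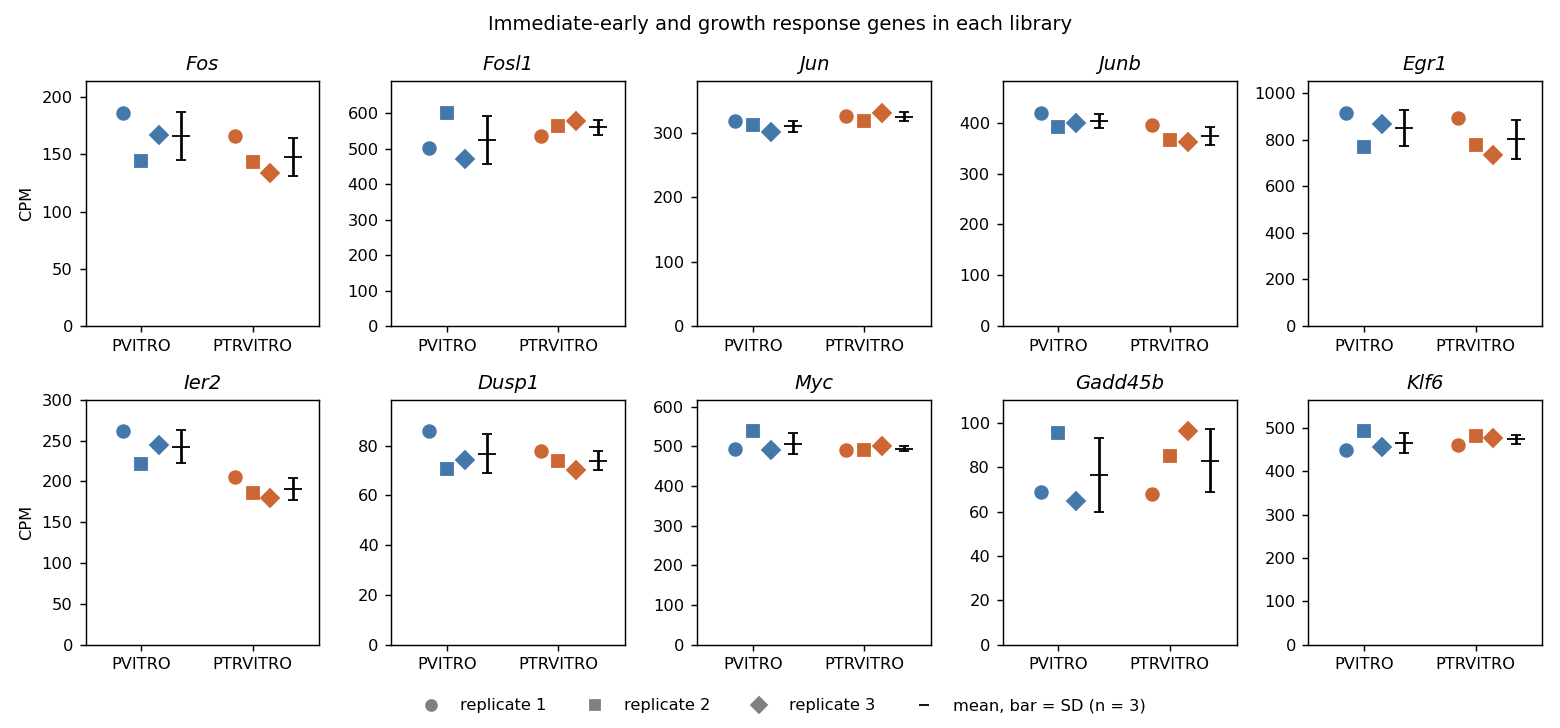
CPM (linear axis from 0) of the 10 genes in each library, PVITRO in blue and PTRVITRO in orange, with the replicate shown by the marker and the mean with its SD (n = 3) beside it in black. Only for Ier2 do all 3 PVITRO libraries (222 to 261 CPM) lie above all 3 PTRVITRO libraries (179 to 205 CPM).

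Egr1, a zinc-finger transcription factor induced through SRF and ELK proteins, was the most abundant member by CPM. It was at 914, 767 and 868 CPM in PVITRO and at 894, 775 and 734 CPM in PTRVITRO. PVITRO replicate 2 and PTRVITRO replicates 2 and 3 were low and the other libraries high, whatever the treatment, and the group means of 849.8 ± 75.3 and 801 ± 82.8 CPM (SD, n = 3) differed by less than either SD. The log2 fold change was -0.08 (SE 0.07; edgeR adjusted p = 0.709), ranging from -0.17 without PTRVITRO replicate 1 to -0.02 without PTRVITRO replicate 3.

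Klf6, a zinc-finger factor of the Krüppel-like family with growth-restraining roles, was at 450.2, 492 and 456 CPM in PVITRO and at 461, 482 and 478 CPM in PTRVITRO. Its PTRVITRO libraries all lay inside the PVITRO range, and the log2 fold change was 0.02 (SE 0.04; edgeR adjusted p = 0.872), running from 0.0038 without PVITRO replicate 1 to 0.07 without PVITRO replicate 2.

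Ier2, a single-exon gene whose nuclear product takes part in the early transcriptional response, was the member with the lowest adjusted p. Ier2 (ENSMUSG00000053560.4) lies at chr8:84661331-84662852 of GRCm38 on the minus strand. Its levels were 261, 222 and 245 CPM in PVITRO and 205, 186 and 179 CPM in PTRVITRO. The groups did not overlap, which held for 17.6% of all tested genes and for 1 of the 10 members. The means were 243 ± 19.99 CPM and 190.2 ± 13.4 CPM (SD, n = 3), and the log2 fold change of -0.35 (SE 0.06) missed the threshold in edgeR (adjusted p = 0.0543). Ier2 passed it with TMM scaling (adjusted p = 0.0484), DESeq2 (1.40e-05), a minimum of 10 counts in every sample (0.0412), no filter (8.33e-12), without PVITRO replicate 2 (0.0117) and without PTRVITRO replicate 1 (0.0246). Over all alternatives its log2 fold change ran from -0.41 to -0.29 and its adjusted p up to 0.310.

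Dusp1 encodes a nuclear phosphatase that inactivates the p38, JNK and ERK kinases and so acts in their feedback. Dusp1 (ENSMUSG00000024190.6) lies at chr17:26505590-26562128 of GRCm38 on the minus strand, a span that reaches upstream of the RefSeq start of the printed promoter. It was at 85.7, 70.4 and 74.2 CPM in PVITRO and at 77.8, 73.8 and 70.2 CPM in PTRVITRO. All PTRVITRO libraries but replicate 3 lay inside the PVITRO range, and the log2 fold change of -0.05 (edgeR, SE 0.07, adjusted p = 0.837) turned to 0.04 without PVITRO replicate 1, where Dusp1 was highest. Its exons overlap those of Ergic1 (139 CPM) on the opposite strand.

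Myc, the growth-promoting transcription factor, is induced by the same signals. Its levels were 492, 537 and 491 CPM in PVITRO and 489.8, 490 and 502 CPM in PTRVITRO. PVITRO replicate 2 stood above the others, which lay within a narrow range, and the log2 fold change of -0.04 (edgeR, SE 0.04, adjusted p = 0.764) was 0.01 without that library.

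Gadd45b, which encodes a small stress-response protein that activates the upstream kinase of p38 and JNK, spread most. Gadd45b (ENSMUSG00000015312.9) lies at chr10:80930073-80932204 of GRCm38 on the plus strand. It was at 69.0, 95.6 and 64.8 CPM in PVITRO and at 67.9, 84.9 and 96.1 CPM in PTRVITRO. Each group held low and high libraries, with means of 76.4 ± 16.7 and 83.0 ± 14.2 CPM (SD, n = 3). The log2 fold change was 0.10 (SE 0.14; edgeR adjusted p = 0.839), and it was 0.30 without PVITRO replicate 2 and -0.00 without PVITRO replicate 3 or without PTRVITRO replicate 3.

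To compare both sources of variation, the pooled within-group SD of log2 CPM was set beside the difference between the groups. The larger of the within-group ranges exceeded the difference between the group means in 9 of the 10 members, all but Ier2. The same held for 89.5% of all tested genes, so the members' share was near the background.

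Between-group variation made a median of 15.9% of the total sum of squares over the members, against 18.5% over all tested genes. The share was highest for Ier2 (78.9%), Jun (58.8%) and Junb (55.1%), and it was 25.4% for Fos, 12.8% for Egr1 and 7.06% for Gadd45b. These medians moved with single libraries. Without PVITRO replicate 2 the members' median was 56.2% against 27.5% for all tested genes, and without PTRVITRO replicate 1 it was 38.7% against 26.3%. It was 9.76% against 20.9% without PVITRO replicate 1, and 9.94% against 21.2% without PTRVITRO replicate 3.

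The within-group SD was large for some members and small for others. Gadd45b had 0.28 (log2 CPM), Fos 0.17, Egr1 0.14, Fosl1 0.13, Dusp1 0.12 and Ier2 0.11, which were larger than those of 99.6%, 97.1%, 92.9%, 92.0%, 87.1% and 85.0% of the 9212 tested genes of at least 10 CPM. Of all tested genes, low ones included, the shares with a smaller SD were 86.9%, 74.8%, 68.0%, 66.9%, 61.5% and 59.6%. Junb (0.06), Klf6 (0.06), Myc (0.05) and Jun (0.03) lay below the middle of those genes. Counting error alone would give an SD of 0.0098 (Egr1) to 0.0326 (Dusp1) for these 10 genes, below the SD measured for each of them. The median over the members was 0.113, against 0.0632 over the tested genes of at least 10 CPM and 0.0896 over all tested genes. The members' median was below that of all tested genes with no filter on low counts (0.101 against 0.215), without PVITRO replicate 1 (0.0847 against 0.0909), without PVITRO replicate 2 (0.0726 against 0.0797) and after the correction for GC content and exon length described further on (0.0858 against 0.0883). Without PVITRO replicate 2, Fosl1 was at 0.06, Myc at 0.01 and Klf6 at 0.03. Dusp1 was at 0.06 without PVITRO replicate 1, and Junb at 0.04 without PTRVITRO replicate 1.

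**Figure D2:**
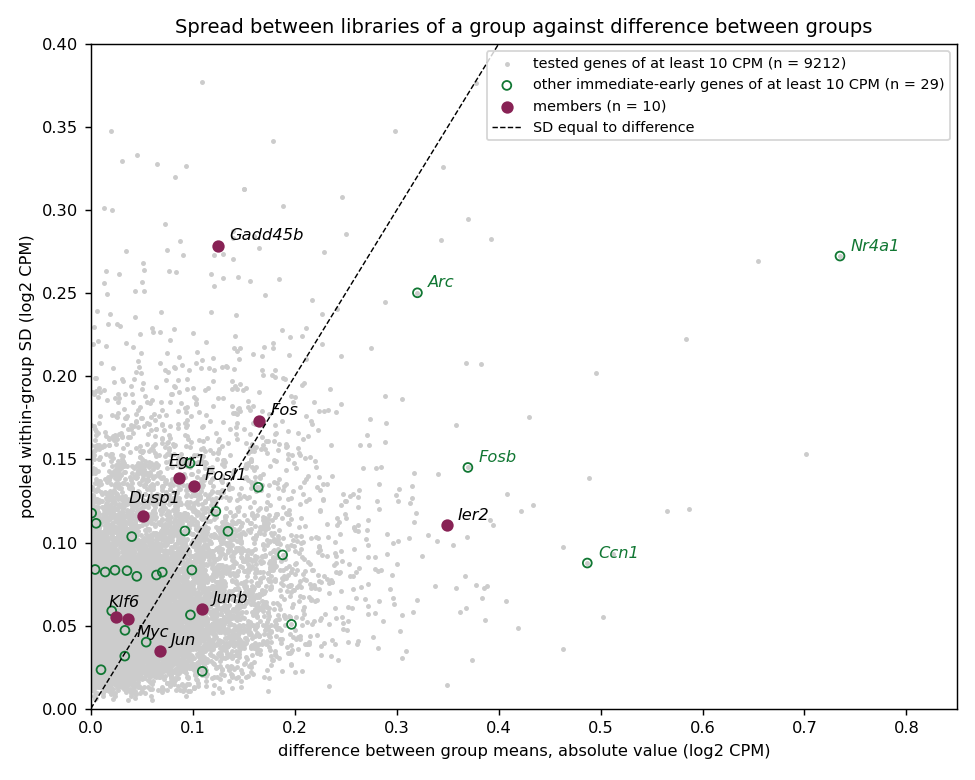
Pooled within-group SD against the absolute difference of the group means, both in log2 CPM, with members in purple, other immediate-early genes as green circles, the remaining tested genes of at least 10 CPM in grey (9 genes lie outside the axes) and the line of equality dashed. Gadd45b (SD 0.28) stands highest and Ier2 (log2 CPM difference of -0.35) farthest to the right among the members.

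The members fell mostly into 2 orders of libraries. These 2 orders were picked because they were the commonest among the members themselves. The members' shares below are raised by that choice, and an excess over the background was not tested. Fos, Junb, Egr1, Ier2 and Dusp1, which is 5 of the 10, each ran replicate 1, 3, 2 from high to low in PVITRO and replicate 1, 2, 3 in PTRVITRO. That order of both groups was found in 9.06% of all tested genes and in 10.4% of those of at least 10 CPM. All 5 were highest in PVITRO replicate 1 and lowest in PTRVITRO replicate 3 of the 6 libraries, as were 7.43% of all tested genes. For Dusp1 the lowest place rests on 70.15 CPM in PTRVITRO replicate 3 against 70.43 CPM in PVITRO replicate 2, a difference smaller than its counting error, and after the correction for GC content and exon length PVITRO replicate 2 was lowest. From the highest to the lowest library, the level differed 1.46-fold for Ier2, 1.40-fold for Fos, 1.245-fold for Egr1, 1.22-fold for Dusp1 and 1.16-fold for Junb.

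Fosl1, Myc and Gadd45b had another order, with PVITRO replicate 2 highest and replicate 3 lowest in their group and PTRVITRO replicates 3, 2, 1 from high to low, the reverse of the first order in PTRVITRO only. This order was found in 3 of the 10 members and in 4.29% of all tested genes. For Myc it rests on differences (492.0 against 491.3 CPM in PVITRO, 489.8 against 490.0 CPM in PTRVITRO) smaller than its counting SD of 0.0126 on the log2 scale, so its place in this order cannot be read. Gadd45b differed 1.48-fold between its extreme libraries, Fosl1 1.27-fold and Myc 1.097-fold. Jun (1.099-fold) and Klf6 (1.09-fold) had orders of their own.

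**Figure D3:**
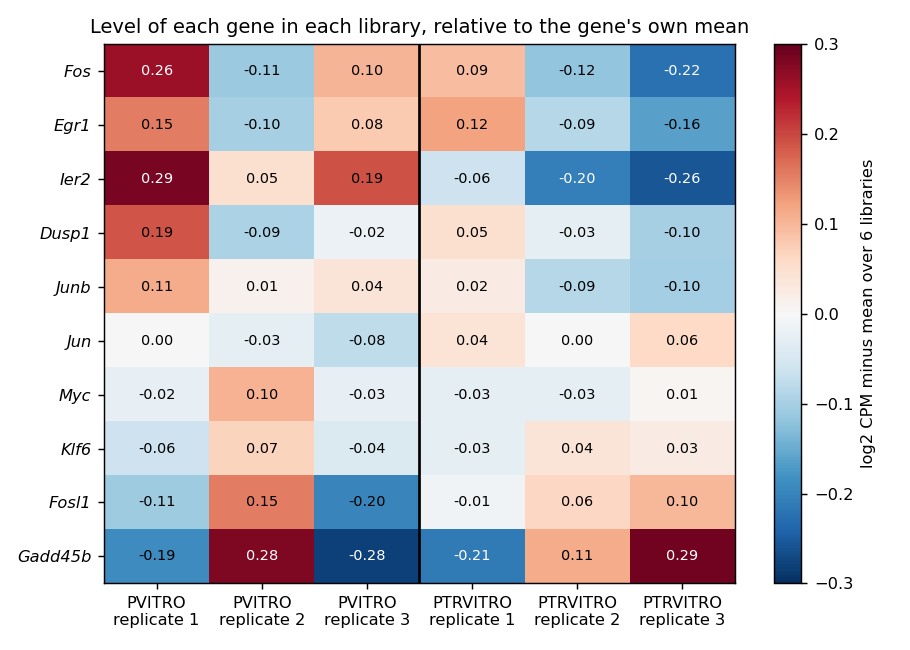
Log2 CPM of each member in each library minus the member's mean over the 6 libraries (colour and printed value), with the groups separated by the black line. The upper 5 rows are highest in PVITRO replicate 1 (0.11 to 0.29) and lowest in PTRVITRO replicate 3 (-0.26 to -0.10), while Gadd45b in the lowest row is at -0.19 and 0.29 there.

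Some other measures of the libraries also differed between replicates, only in part in these orders. Mitochondrial transcripts made 1.52%, 1.43% and 1.63% of the counts in PVITRO replicates 1, 2 and 3 and 1.64%, 1.40% and 1.33% in PTRVITRO, so PVITRO replicate 2 and PTRVITRO replicates 2 and 3 were low here too, but PVITRO replicate 3 was above replicate 1. Scaled to total counts alone, the summed level of the 3 fibroblast markers, of which Dcn and Pdgfra were detected and Lum was at 0, was 54.4, 43.4 and 53.4 CPM in PVITRO and 41.3, 37.3 and 33.8 CPM in PTRVITRO, in the order of Fos within each group. That order was Dcn's alone, since Pdgfra ran the other way in PTRVITRO (8.08, 9.32 and 9.82 CPM with upper-quartile scaling) and was highest in replicate 3 in PVITRO (7.62, 7.88 and 9.76 CPM). The 6 leukocyte markers summed to 0.683, 0.598 and 0.575 CPM in PVITRO and to 0.432, 0.462 and 0.338 CPM in PTRVITRO, in neither order, with Ptprc and Adgre1 at 0. The 3 endothelial markers summed to 0.123 to 0.256 CPM in PVITRO and 0.0617 to 0.113 CPM in PTRVITRO. The fibroblast, leukocyte and endothelial sums were each lower in every PTRVITRO library than in every PVITRO library. The endothelial sums rest on 16 counts of Pecam1, 3 of Cdh5 and 1 of Kdr over all libraries. Nearly all counts in the leukocyte sums were of Lyz2 (75 counts). Groups that did not overlap were found for 17.6% of all tested genes. For Dcn the log2 difference was -0.56 (edgeR, adjusted p = 0.0919), on the same side of 0 as Ier2 and, in the list that follows, Ccn1 and Nr4a1, whereas Pdgfra had 0.10 (adjusted p = 0.803). The part of these measures in the members' spread and in the differences between the groups was not tested.

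The count-weighted GC content of the libraries ran only from 48.9% to 49.0%. After each library's trend with GC content and exon length was removed, a correction chosen after seeing the data, Fos, Egr1, Ier2 and Dusp1 kept the first order and Junb did not, and Fosl1 and Gadd45b kept the second, which Myc lost and Jun took up. The within-group SD was then 0.14 for Fos, 0.10 for Egr1, 0.17 for Fosl1, 0.31 for Gadd45b and 0.03 for Junb, and the Ier2 difference was -0.30 with an SD of 0.06. With total counts as the only scaling, the same 5 and 3 genes kept their orders.

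For each of Fos, Egr1 and Myc, the genes with the most similar profile were taken from 9211 tested genes of at least 10 CPM by the root-mean-square difference of centred log2 CPM over the 6 libraries. For Fos these were Cdon, Eva1b and H1f0 (0.0285 to 0.0311, against an own amplitude of 0.164). For Egr1 they were Igbp1, Dag1 and Ldb1 (0.0180 to 0.0223, amplitude 0.121), and for Myc Arhgap10, Pprc1 and Mtmr1 (0.0084 to 0.0125, amplitude 0.0479). H1f0, encoding the linker histone H1.0, was at 677, 545 and 633 CPM in PVITRO and at 595, 534 and 481 CPM in PTRVITRO, in the library order of Fos. None of these neighbours belongs to the immediate-early list.

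Of 36 other immediate-early genes, chosen with earlier results of these data known, 35 were tested. A single gene (1 of 35) passed the test, lower in PTRVITRO, and none higher, against 0.246% of all tested genes in either direction. At an unadjusted p under 0.05 in edgeR there were 9 of the 35. Their log2 fold changes were below 0 in 29 and above 0 in 6, with a median of -0.07 against -0.00 over all tested genes. Of the 14217 tested genes, 7320 were below 0. Several genes of the list shared a library order, as given below, so their signs are not independent. The groups did not overlap in 7 of the 35, which is 20% against 17.6% of all tested genes.

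The gene that passed was Ccn1, which encodes the matricellular protein CYR61, a target of SRF and YAP. Ccn1 was at 1211, 1087 and 1143 CPM in PVITRO and at 883, 793 and 780.3 CPM in PTRVITRO. All PTRVITRO libraries lay below all PVITRO libraries, and Ccn1 fell by 0.49 on the log2 scale (SE 0.05; edgeR adjusted p = 0.00529). It stayed below the threshold in each alternative run, with an adjusted p of at most 0.0484. Its library order within the groups was that of Fos.

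Nr4a1, an orphan nuclear receptor gene, had the largest fold change of the list. It was at 36.9, 22.6 and 30.0 CPM in PVITRO and at 19.2, 18.0 and 15.6 CPM in PTRVITRO, without overlap, with a log2 fold change of -0.74 (SE 0.15) that missed the threshold in edgeR (adjusted p = 0.0888). Its adjusted p in edgeR was 0.00516 without PVITRO replicate 2 and 7.33e-22 with no filter on low counts. Over all alternatives it was at most 0.333, and the log2 fold change without each library in turn ran from -0.91 to -0.55. Gem, encoding a small GTPase, was low (3.22 and 2.38 CPM on average) with a log2 fold change of -0.46 (adjusted p = 0.375). The abundant Plk2 (1033 and 968 CPM) and Btg1 (582 and 580.1 CPM) had log2 fold changes of -0.09 and -0.01 (adjusted p = 0.593 and 0.977). Fosb, the paralog of Fos, named after its values were seen, was at 25.3, 22.0 and 23.5 CPM in PVITRO and 20.3, 18.7 and 15.9 CPM in PTRVITRO, with a log2 fold change of -0.35 (adjusted p = 0.170).

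The library order of Fos was met again in this list. In 12 of the 35 (34.3%) the libraries of both groups ran in that order, against 9.06% of all tested genes, among them Fosb, Egr2, Egr3, Nr4a1, Ier3, Btg2, Zfp36, Ccn1 and Arc, which were named after their values were seen. PVITRO replicate 1 was the highest of the 6 libraries for 16 of the 35, against 18.8% of all tested genes, and PTRVITRO replicate 3 the lowest for 13, against 22.7%. The order of Gadd45b was found in 4 of the 35 (11.4%).

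Of 14 feedback genes of the ERK pathway, 1 passed the test and was higher in PTRVITRO, where 0.246% of all tested genes passed in either direction (14 of the 35 higher), and 6 had an unadjusted p under 0.05 in edgeR. The gene that passed was Spry4, encoding a Sprouty protein that restrains receptor tyrosine kinase signalling, at 62.4, 64.8 and 65.4 CPM in PVITRO and 82.0, 76.2 and 74.5 CPM in PTRVITRO, or 0.28 higher on the log2 scale (SE 0.05; adjusted p = 0.0454 in edgeR). The groups did not overlap, but the adjusted p was 0.05002 with limma-voom and 0.192 without PVITRO replicate 1, 0.171 without PVITRO replicate 3, 0.0756 without PTRVITRO replicate 1, 0.164 without PTRVITRO replicate 2 and 0.0775 without PTRVITRO replicate 3. Its paralogs Spry2 and Spry1 had log2 fold changes of -0.30 and -0.28, on the other side of 0 (adjusted p = 0.0515 and 0.313).

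Dusp5, encoding a nuclear ERK phosphatase, was at 242, 232 and 245 CPM in PVITRO and 213, 197 and 202 CPM in PTRVITRO, without overlap (log2 fold change -0.23; adjusted p = 0.0515 in edgeR). The edgeR adjusted p was 0.0423 with TMM scaling, 0.0366 with a minimum of 10 counts in every sample and 6.20e-05 with no filter. It was 0.0275 without PVITRO replicate 2, 0.0249 without PTRVITRO replicate 1 and as high as 0.305 without PTRVITRO replicate 2. DESeq2 called Dusp5 (0.000407) and Spry2 (0.0105) as well as Spry4, 3 of the 14 genes, beside 111 of all tested genes, and limma-voom called none of the 14. Errfi1, an inhibitor of EGF receptors, had -0.13 (adjusted p = 0.243). Dusp6, a cytoplasmic ERK phosphatase often read as a gauge of ERK activity, was at 165.6 CPM in both groups on average, with a log2 fold change of 0.00 (SE 0.06; adjusted p = 0.993).

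In edgeR, none of the 20 tested genes of the kinases and factors that act upstream (SRF, its partners, CREB, ATF and MAP kinases) passed the test, 13 with a fold change above 0 and 7 below. Elk3 and Map2k1, both among the most abundant, had log2 fold changes of 0.06 and 0.02, and Rps6ka5, Crem and Rps6ka1, with the largest, had 0.17, 0.16 and -0.15 (lowest adjusted p of the list 0.306). At an unadjusted p under 0.05 there were 2 such genes in edgeR, and DESeq2 and limma-voom called none either.

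For MYC, none of the 10 tested partners (of 12 listed) and none of the 19 tested targets (of 20) passed in edgeR, DESeq2 or limma-voom. At an unadjusted p under 0.05 in edgeR there were 0 and 7. Max, the obligate partner of MYC, was at 70.9 and 72.5 CPM, and Mga and Mnt had log2 fold changes of -0.01 and -0.04. Mxd4 (-0.28), Mycbp (0.13) and Mlx (-0.09) had the largest fold changes among the partners. Of the targets, the nucleolar genes Ncl and Npm1 and the glycolytic gene Ldha had -0.01, 0.03 and 0.06, and Tfap4, Eif4e and Cad had -0.25, 0.16 and -0.12 (lowest adjusted p 0.140, for Eif4e).

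In the families of Gadd45b and Klf6, none of 10 tested genes passed in any of the 3 tools, and 1 had an unadjusted p under 0.05 in edgeR. Gadd45a, the most abundant of its family by CPM, was at 639 and 659 CPM (log2 fold change 0.04), Klf3 and Klf5 had -0.06 and 0.01, and Klf9 and Klf11, with the largest values, had -0.28 and 0.19 (adjusted p = 0.197 and 0.453). None of 11 tested heat shock genes passed in those tools, with 2 at an unadjusted p under 0.05 in edgeR. The abundant Hsp90aa1, Hsp90ab1 and Hspd1 had log2 fold changes of 0.10, -0.07 and -0.01. Hspa1b and Dnajb1, which respond to heat and handling of cells, had -0.19 and -0.08 (adjusted p = 0.181 and 0.579).

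**Figure D4:**
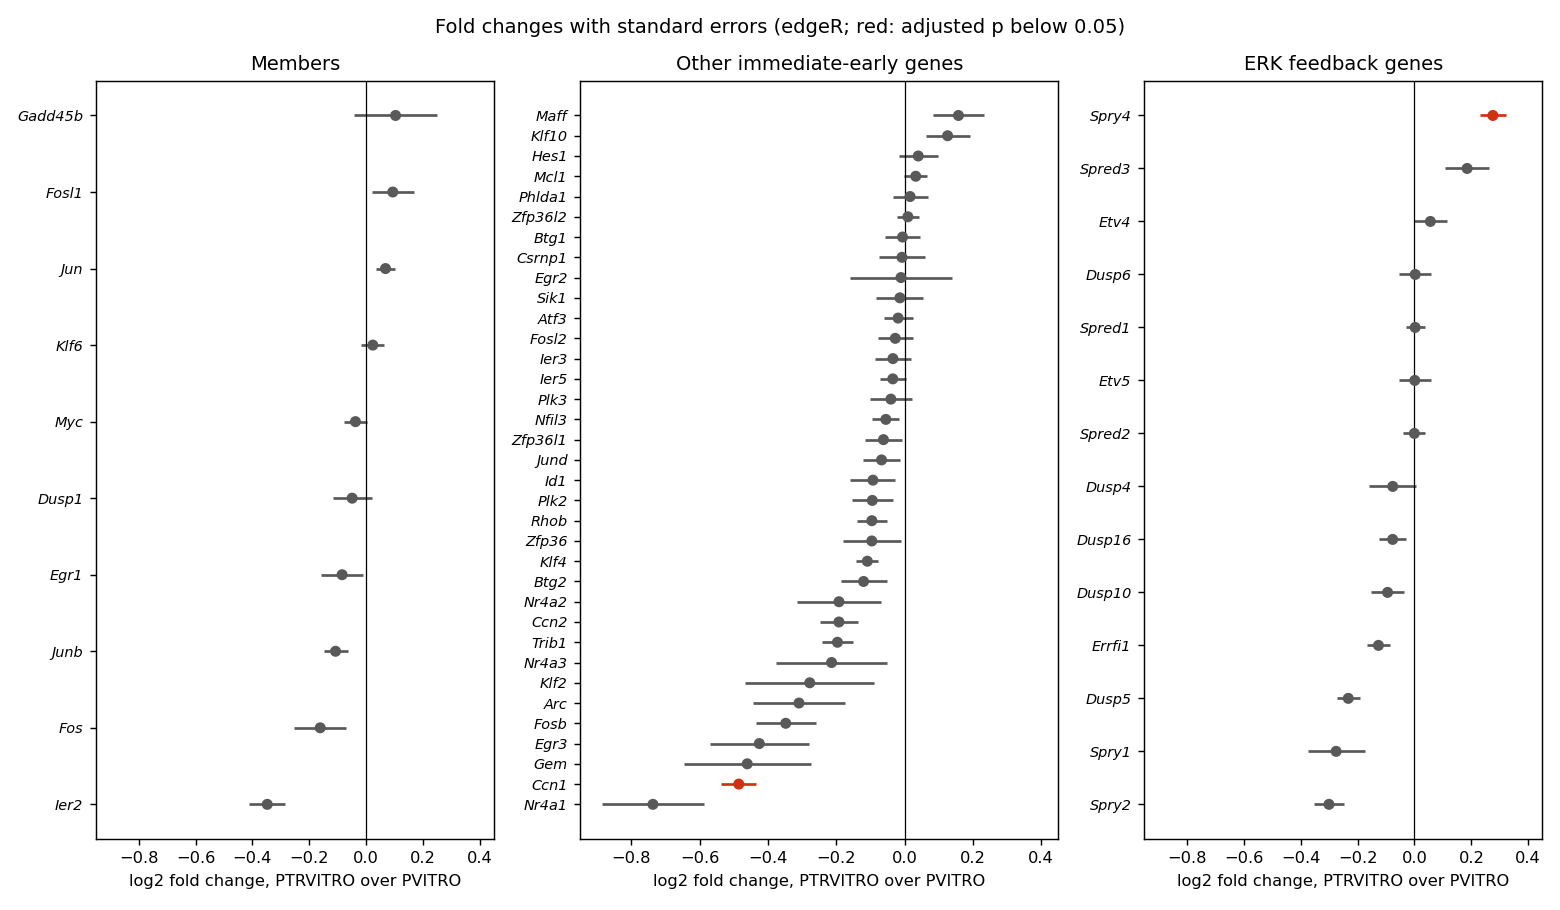
Log2 fold change (PTRVITRO over PVITRO, edgeR) with its standard error for the members, the other tested immediate-early genes and the ERK feedback genes, in red where the adjusted p over all tested genes was below 0.05. Ccn1 (-0.49) and Spry4 (0.28) are the red points, and 29 of the 35 other immediate-early genes lie left of 0, as do 7320 of the 14217 tested genes.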

How the data were processed

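Polyadenylated RNA of 6 EMT6 samples (3 PVITRO, 3 PTRVITRO) was sequenced. The authors deposited expected counts per gene, estimated with RSEM 1.3.1 after STAR 2.6.0a alignment to GRCm38, not scaled between samples. Groups were taken from the sample labels. Identifiers were matched to symbols (53274 of 53465) and to coordinates of the same build (53360).

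Expected counts were rounded, filtered (filterByExpr, minimum count 10, minimum total 15), scaled by the upper quartile and fitted with edgeR 4.0.16 (quasi-likelihood, R 4.3.3) on group alone, with Benjamini-Hochberg adjustment over 14217 genes and a threshold of 0.05. CPM use the same scaling, and log2 CPM a prior count of 2. Data of this comparison (14217 genes) were simulated with a biological coefficient of variation of 5%. Of 200 changed genes in them, 188 were called, and 5.05% of calls were false. The share called at the within-group SD measured for Fos (0.17, log2 CPM) or Gadd45b (0.28) was not tested. A count of 3 corresponds to 0.0925 to 0.169 CPM by library. Between 12.5% and 13.8% of values were not whole.

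Alternatives were TMM or total-count scaling, DESeq2 1.42.0, limma-voom (limma 3.58.1), other filters and prior counts, a replicate block and leaving out each library. Removal of GC and exon length trends was added after seeing the data. The members and all gene lists were chosen with earlier results of these data known. Named were all members, in each list the genes that passed, the 3 highest by CPM and the 3 with the largest fold change (mean count of at least 50), and the 3 genes nearest in profile to Fos, Egr1 and Myc. Others are marked as chosen after their values were seen. The values of 1 gene named by this rule are not reported here. Transcripts were searched with BLAST 2.17.0 for other copies of the members, at 95% identity or more. Deposited expected counts of 0 in all libraries (28085 genes) did not enter the test.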

Additional observations from a re-analysis of the deposited data

How the results depend on the processing

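The number of genes called was 35, and it was 111 with DESeq2, 400 with no filter on low counts, 54 after requiring 10 counts in all samples, and 68 under a replicate block, a fit with the replicate number as a term. Members called went from 0 to 1 (Ier2) with TMM scaling, DESeq2, the stricter filter and the replicate block, and to 2 (Ier2 and Fos) with no filter. Ier2 then had log2 fold changes of -0.35 (TMM), -0.34 (DESeq2), -0.35 (no filter), -0.35 (stricter filter) and -0.35 (replicate block, adjusted p = 0.0141), and Fos had -0.16 with no filter. Other immediate-early genes called went from 1 to 8 with no filter and 2 with the replicate block. Under the replicate block Spry4 missed the threshold (adjusted p = 0.0544), and Nr4a1 (0.0342) and Dusp5 (0.0273) passed it. Same-numbered libraries of the groups had deviations that correlated at 0.109, 0.0950 and -0.0556 across genes, so the numbers were not read as pairs. The causes of these changes were not tested.

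Leaving out each library gave 8 to 64 calls, 0 to 1 members called and 1 to 2 other immediate-early genes called. The fewest calls came without PTRVITRO replicate 3 and the most without PVITRO replicate 2. Log2 fold changes ran from -0.41 to -0.29 for Ier2, -0.108 to 0.0404 for Dusp1 (turning without PVITRO replicate 1), -0.058 to 0.0072 for Myc (turning without PVITRO replicate 2) and -0.0044 to 0.30 for Gadd45b (turning at -0.0005 without PVITRO replicate 3 and at -0.0044 without PTRVITRO replicate 3). The members' median between-group share ran from 9.76% to 56.2%. The cause was not tested. The median fold change of all tested genes stayed within -0.01 and 0.01 (log2).

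With 3 libraries a group, a fold change that missed the threshold does not show equal levels. The members' counts of 1962 to 21554 per library on average leave little counting error, so the spread between libraries is the limit here.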
